A study of Homo sapiens with 9 samples.

Results

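The midbrain and hindbrain regional factors described here are 9 homeobox and zinc finger genes, EN1, EN2, EGR2, IRX1, IRX2, IRX3, MEIS1, MEIS2 and GBX2. Their probe sets were taken as those of the expression array whose platform annotation names a single gene, and that gene a member. This gave 10 probe sets of the 54675 on the array, for 8 of the 9 genes and among 19735 genes measured. EGR2, which marks hindbrain rhombomeres, was not analysed here. MEIS1 and IRX2 had 2 probe sets each, and the one with the higher mean over all arrays stood for the gene.

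The study profiled 3 human embryonic stem cell lines, Shef3, H14 and Shef1, on 9 arrays. Cells of the FGF3+10 group were trypsinised, strained and seeded onto laminin, then grown for 14 days in DFNB, a DMEM/F12 medium with the N2 and B27 supplements, to which FGF3 was added at 50 ng/ml and FGF10 at 50 ng/ml. Cells of the DFNB group were handled alike for 14 days without added FGF. The hESC group was undifferentiated, at day 0, grown on inactivated mouse embryonic fibroblasts in serum replacement medium with basic FGF. Each group held 1 array of each line, so the 3 replicates of a group are 3 lines, and the spread within a group mixes line and culture. Total RNA of the whole culture was amplified, so fewer cells of a type and less RNA per cell cannot be told apart.

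In the vertebrate neural tube these factors divide the region behind the forebrain. EN1 and EN2, the engrailed homeodomain proteins, mark the midbrain and the isthmus, the organizer at its border with the hindbrain, and GBX2 sets the hindbrain side of that border. The Iroquois proteins IRX1, IRX2 and IRX3 act in neural plate patterning and in many later tissues, and the TALE homeodomain proteins MEIS1 and MEIS2 bind DNA together with PBX and HOX proteins, also in eye, limb and blood.

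The sequence before the RefSeq start of 4 members is shown because the results turn on these pairs. MEIS1 and MEIS2 were both higher on every day 14 array than on any hESC array. IRX1 and IRX2 lie next to each other on chromosome 5 with 0 protein-coding genes between them. Their group means moved in opposite directions against hESC. Over the 6 day 14 arrays alone, IRX1 and IRX2 had a Pearson r of 0.705, beside 0.718 for MEIS1 and MEIS2. The other IRX2 probe set had an r of 0.426 with IRX1. Members on different chromosomes had an r as high, with 0.740 for IRX1 and IRX3 and 0.792 for IRX3 and MEIS1. Each line gives the 250 bases before the start, 5′ to 3′ on the gene's strand, in GRCh38.p14 with CG dinucleotides in capitals. The MEIS1 window is chr2:66434875-66435124 on the plus strand. The MEIS2 window is chr15:37099107-37099356 on the minus strand, before the most upstream of its listed starts. The IRX1 window is chr5:3595582-3595831 on the plus strand, and the IRX2 window is chr5:2751678-2751927 on the minus strand.
MEIS1: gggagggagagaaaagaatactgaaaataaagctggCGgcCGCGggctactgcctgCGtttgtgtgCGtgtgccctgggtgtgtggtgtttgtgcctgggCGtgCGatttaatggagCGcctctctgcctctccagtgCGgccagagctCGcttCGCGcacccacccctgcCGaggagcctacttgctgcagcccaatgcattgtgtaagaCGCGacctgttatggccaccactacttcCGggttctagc
MEIS2: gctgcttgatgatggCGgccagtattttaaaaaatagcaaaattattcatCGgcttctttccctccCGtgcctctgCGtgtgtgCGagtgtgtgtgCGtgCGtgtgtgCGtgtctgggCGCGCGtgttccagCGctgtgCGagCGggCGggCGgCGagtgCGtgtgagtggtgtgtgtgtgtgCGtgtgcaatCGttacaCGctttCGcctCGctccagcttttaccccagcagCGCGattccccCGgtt
IRX1: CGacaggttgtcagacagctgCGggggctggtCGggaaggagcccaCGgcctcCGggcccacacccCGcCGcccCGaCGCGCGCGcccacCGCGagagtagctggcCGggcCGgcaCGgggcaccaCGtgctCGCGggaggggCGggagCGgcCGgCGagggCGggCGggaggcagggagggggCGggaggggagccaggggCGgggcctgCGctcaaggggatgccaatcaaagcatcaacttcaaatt
IRX2: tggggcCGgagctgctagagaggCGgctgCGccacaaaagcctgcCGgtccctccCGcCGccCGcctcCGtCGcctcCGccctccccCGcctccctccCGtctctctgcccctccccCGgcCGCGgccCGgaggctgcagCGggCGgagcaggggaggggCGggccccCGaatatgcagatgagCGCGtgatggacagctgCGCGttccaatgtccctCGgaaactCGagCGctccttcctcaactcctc
The MEIS1 window held 16 CG dinucleotides and the MEIS2 window 26, at a GC content of 59.6% and 58.8%. The IRX1 window held 29 and the IRX2 window 27, at a GC content of 75.2% and 72.8%. The median of all 35116 promoters of the same length was 11 CG dinucleotides and a GC content of 58.0%, so all 4 windows held more CG dinucleotides than that median. The letters TGACAG (MEIS), TAATTA (EN and GBX), ACANNTGT (IRX) and GCGTGGGCG (EGR), searched on both strands, were in none of these 4 windows. They were in 13.0%, 4.35%, 4.71% and 0.72% of all promoters, in that order.

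Levels are the deposited log values, taken as log2, whose median was 3.20 on every array. The 82 olfactory receptor genes on the array, a class not known to be active in such cultures, had a 95th percentile of 3.55, which serves as a guide to low signal. Poly-A spike-in controls averaged 7.21 to 7.28 on the Shef1 arrays and 4.72 to 5.43 on the arrays of the other lines, and their part in the results was not tested. The 9 measured pluripotency markers of 10 listed summed to a log2 level of 9.58 to 13.4 in FGF3+10 and 9.35 to 13.1 in DFNB, against 13.8 to 14.3 in hESC. Each such sum of a list is the log2 of its added unlogged values, so its highest genes weigh most. The Shef1 cultures at day 14 kept the highest sums, 13.40 with FGF3+10 and 13.09 in DFNB. NANOG, a core pluripotency factor, had 9.14 on the Shef1 array of FGF3+10 and 9.64 on that of DFNB, against -7.62 and -10.17 on the 2 Shef3 arrays of day 14.

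Against hESC, MEIS1, MEIS2 and IRX3 were higher on every array of both day 14 groups, and IRX1 on every DFNB array. None of the 8 members passed an adjusted p of 0.05 in the comparison of all arrays with limma. This was read against 0.177% of all genes called in FGF3+10 against hESC and 0.203% in DFNB against hESC. At an unadjusted p under 0.05, 4 of 8 members passed for FGF3+10 (IRX1, IRX3, MEIS1 and MEIS2), where 12% of all genes did, and 3 of 8 for DFNB (IRX1, MEIS1 and MEIS2), where 15.8% did. Groups did not overlap, with the day 14 group higher, for 3 members with FGF3+10 (background 5.66%) and for 4 in DFNB (background 7.79%). They did so with the day 14 group lower for 0 members in either comparison (background 11.3% and 14.4%). The median change over the 8 members was 1.49 with FGF3+10 and 1.46 in DFNB on the log2 scale, beside -0.19 and -0.19 over all genes. These comparisons share the hESC arrays.

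MEIS2 had 10.26, 10.68 and 9.64 on the Shef3, H14 and Shef1 arrays of FGF3+10, 10.57, 10.74 and 9.75 on those of DFNB, and 7.69, 8.21 and 7.65 on those of hESC. All 6 day 14 arrays were above all 3 hESC arrays, by at least 1.43 log2 units. The mean was 10.19 ± 0.52 in FGF3+10, 10.35 ± 0.53 in DFNB and 7.85 ± 0.31 in hESC (SD, n = 3 each). The log2 change against hESC was 2.34 ± 0.40 for FGF3+10 (SE; adjusted p = 0.0719; 95% interval 1.44 to 3.25) and 2.50 ± 0.40 for DFNB (adjusted p = 0.0570; 1.59 to 3.41). With the cell line as a replicate block, which compares each line with itself, MEIS2 passed in both, at an adjusted p of 0.0321 and 0.0246. The block called 0.583% of all genes in the comparison of FGF3+10 and 0.958% in that of DFNB, and MEIS2 was the only member it called. Leaving out arrays or lines ended the FGF3+10 call in all 12 fits tried with the block, whose adjusted p ran from 0.0570 to 0.268. In DFNB it ended in 10 of 12 fits, and the adjusted p ran from 0.0373 to 0.242. The calls without the Shef1 hESC array and without the Shef3 FGF3+10 array were kept. The size moved little in those fits, between 2.19 and 2.53 for FGF3+10 and between 2.31 and 2.70 for DFNB, and without the Shef1 line it was 2.52 and 2.70.

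MEIS1 had 7.97, 8.77 and 7.81 on the Shef3, H14 and Shef1 arrays of FGF3+10, 8.21, 7.94 and 7.39 on those of DFNB, and 5.42, 6.45 and 6.06 on those of hESC. Here too no day 14 array reached down to an hESC array. The log2 change was 2.21 ± 0.41 for FGF3+10 (adjusted p = 0.0903, and 0.0648 with the block) and 1.87 ± 0.41 for DFNB (adjusted p = 0.101, and 0.0662 with the block), and without the Shef1 line it was 2.44 and 2.14. The other MEIS1 probe set gave 6.03, 6.96 and 4.73 in FGF3+10, 6.26, 6.16 and 4.55 in DFNB, and 0.59, 2.98 and 1.90 in hESC. Its groups did not overlap either, and its change was 4.08 ± 0.79 for FGF3+10 and 3.83 ± 0.79 for DFNB (adjusted p = 0.118 and 0.112 over all probe sets). Its 3 hESC values lay below the 95th percentile of the olfactory receptor genes, while those of the main probe set lay above it. The plot of levels by group shows every array of the 8 measured members.

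**Figure D1:**
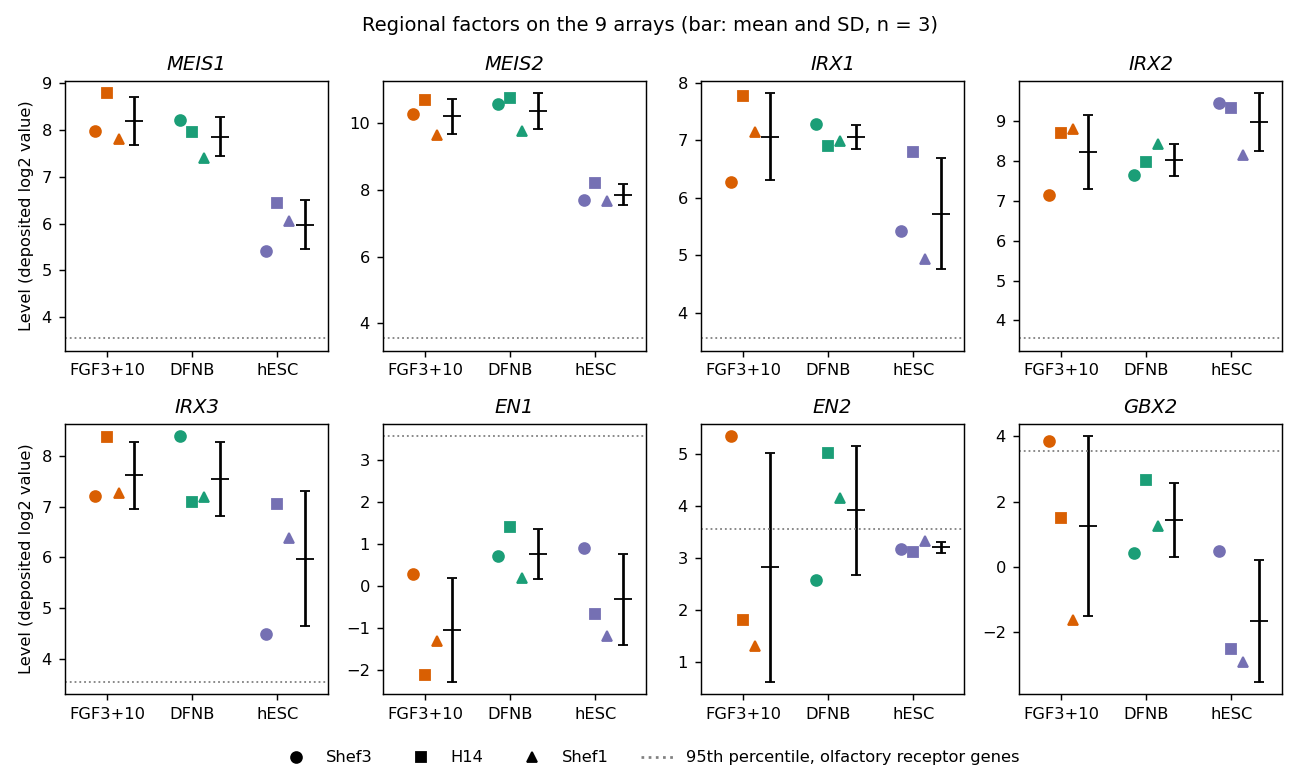
Deposited log2 level (vertical axis, own scale per panel) of each measured member in FGF3+10, DFNB and hESC, with 1 point per array, the marker giving the cell line, and bars for mean and SD (n = 3). MEIS1 and MEIS2 have no hESC point as high as any day 14 point, and EN1 lies below the dotted 95th percentile of olfactory receptor genes (3.55) on all arrays.

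Over the 6 day 14 arrays, MEIS1 and MEIS2 had a Pearson r of 0.718, and the other MEIS1 probe set had an r of 0.932 with MEIS2 and of 0.893 with the main MEIS1 probe set. These arrays come from 3 lines with a pair of cultures each, and the Shef1 pair was the lowest for MEIS2 and for both MEIS1 probe sets. In the plot of MEIS1 against MEIS2 the hESC arrays lie apart from the day 14 arrays, so no r over all arrays is given for the pair.

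**Figure D2:**
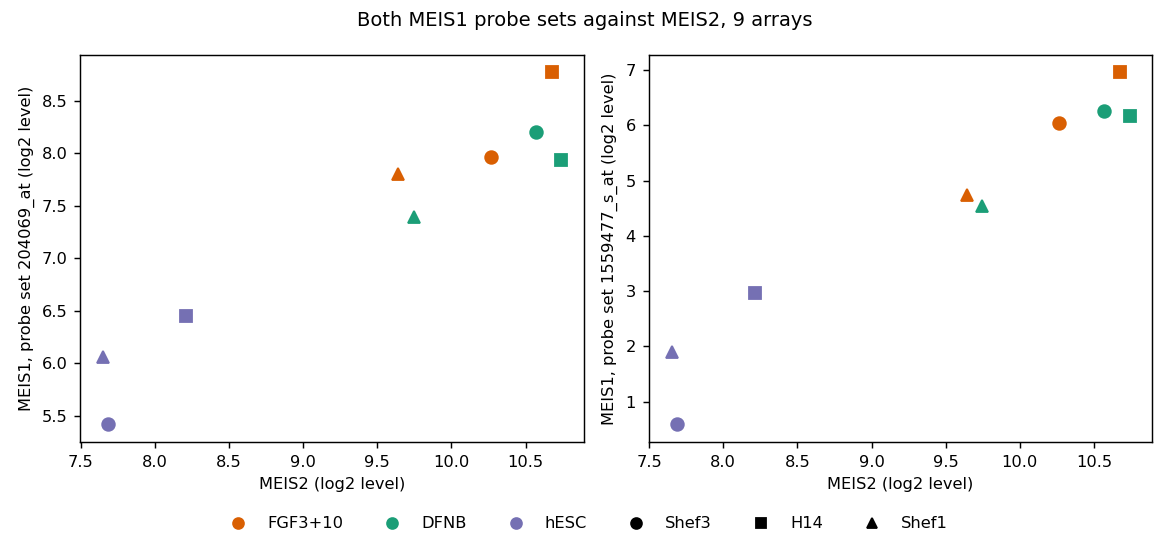
Log2 level of MEIS2 (horizontal) against that of each MEIS1 probe set (vertical) on the 9 arrays, with colour for the group and marker for the line. The 3 hESC arrays sit at the lower left in both panels, and within day 14 the Shef1 arrays (triangles) have the lowest MEIS2, 9.64 and 9.75.

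Markers of the neural crest, a migratory ectodermal lineage in which MEIS genes are also active, were read beside the MEIS values. The 6 measured of 8 listed summed to 9.83 to 11.1 in FGF3+10 and 10.1 to 10.9 in DFNB, against 9.44 to 10.0 in hESC. Over the 6 day 14 arrays the sum had an r of 0.968 with MEIS2, 0.914 with the other MEIS1 probe set and 0.758 with the main one. Other measures ran with MEIS2 on these arrays too, with an r of -0.895 for the poly-A spike-ins, 0.799 for the mesenchyme sum, 0.774 for the neuron sum and -0.605 for the pluripotency sum. For the main MEIS1 probe set the spike-ins had an r of -0.635 and for the other one -0.897. Of the list, TFAP2A, an ectodermal AP-2 factor, passed with the block only, at an adjusted p of 0.0321 for FGF3+10 (change 2.68 ± 0.58) and 0.0322 for DFNB (2.54 ± 0.58). SOX10, the defining crest marker, had 1.88, 3.81 and 1.78 in FGF3+10, 3.16, 1.58 and 1.70 in DFNB and 2.57, 4.18 and 3.21 in hESC, with its groups overlapping. TFAP2A and SOX10 were chosen after their values were seen. The genes of the list with the largest change were FOXD3, at -3.06 ± 1.90 for FGF3+10 and -3.89 ± 1.90 for DFNB (adjusted p = 0.563 and 0.359), and TFAP2B, at 2.94 ± 1.00 and 3.79 ± 1.00 (adjusted p = 0.290 and 0.149). The list had a median change of -0.16 and 0.07, and 0 of its genes were called without the block. The part of crest-like cells, of other cell types or of the spike-in difference in the MEIS values was not tested.

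IRX3, the Iroquois gene of the chromosome 16 cluster, had 7.20, 8.38 and 7.26 on the Shef3, H14 and Shef1 arrays of FGF3+10, 8.38, 7.08 and 7.18 on those of DFNB, and 4.49, 7.06 and 6.38 on those of hESC. The H14 hESC array, at 7.056, was just below the lowest DFNB array, at 7.083. The change was 1.64 ± 0.69 for FGF3+10 (adjusted p = 0.398) and 1.57 ± 0.69 for DFNB (adjusted p = 0.318). Without the Shef3 hESC array it was 0.90 for FGF3+10 and 0.83 for DFNB, and without the Shef3 line the DFNB change was 0.42. Within lines the DFNB difference reached 3.89 in Shef3, against 0.03 in H14 and 0.80 in Shef1, so most of it came from Shef3, whose hESC array was the lowest.

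IRX1 had 6.28, 7.78 and 7.15 on the Shef3, H14 and Shef1 arrays of FGF3+10, 7.29, 6.90 and 6.98 on those of DFNB, and 5.42, 6.80 and 4.94 on those of hESC. All 3 DFNB arrays were above all hESC arrays, and the Shef3 array of FGF3+10 was below the H14 hESC array. The change was 1.34 ± 0.54 for FGF3+10 (adjusted p = 0.373) and 1.34 ± 0.54 for DFNB (adjusted p = 0.292). The H14 line differed least between DFNB and hESC, by 0.10, while Shef3 and Shef1 differed by 1.87 and 2.04.

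IRX2, the neighbour of IRX1, had 7.14, 8.69 and 8.79 on the Shef3, H14 and Shef1 arrays of FGF3+10, 7.63, 7.97 and 8.42 on those of DFNB, and 9.44, 9.31 and 8.14 on those of hESC. Its group means ran the other way to those of IRX1 and IRX3, with a change of -0.76 ± 0.54 for FGF3+10 (adjusted p = 0.616) and -0.96 ± 0.54 for DFNB (adjusted p = 0.418), neither past the threshold. The lines split: Shef3 differed by -2.30 and -1.81, H14 by -0.62 and -1.35, and Shef1 by 0.65 and 0.28, for FGF3+10 and DFNB in that order. The other IRX2 probe set, at a lower level, gave 2.70, 3.32 and 4.14 in FGF3+10, 3.35, 3.43 and 3.76 in DFNB and 4.21, 3.81 and 3.94 in hESC. It had an r of 0.811 with the main one over the 6 day 14 arrays, and a change of -0.60 ± 0.40 for FGF3+10 and -0.47 ± 0.40 for DFNB (adjusted p = 0.652 and 0.647 over all probe sets).

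IRX2 ran with the pluripotency markers within day 14, with an r of 0.927 between its level and the summed list over these 6 arrays, where the Shef1 arrays had high values of both. The list summed to 9.58, 12.4 and 13.4 on the Shef3, H14 and Shef1 arrays of FGF3+10 and to 9.35, 10.9 and 13.1 on those of DFNB. The order of the lines was thus that of IRX2 in each day 14 group. Of the list, 0 genes were called and 9 of 9 were lower in both day 14 groups on average, with a median change of -2.48 with FGF3+10 and -3.05 in DFNB. LEFTY1, a Nodal antagonist of undifferentiated cells, had a change of -7.51 ± 2.21 and -6.95 ± 2.21 (adjusted p = 0.225 and 0.203). Over the 6 day 14 arrays IRX2 also had an r of 0.682 with the poly-A spike-ins. Its r was -0.766 with the mesenchyme sum, -0.642 with the neuron sum and -0.187 with the neural crest sum. The other IRX2 probe set had an r of 0.780 with the pluripotency sum and 0.851 with the spike-ins. The spike-ins and the pluripotency sum had an r of 0.835 with each other. The part of remaining undifferentiated cells, of other cell types or of the spike-in difference in the IRX2 values was not tested.

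**Figure D3:**
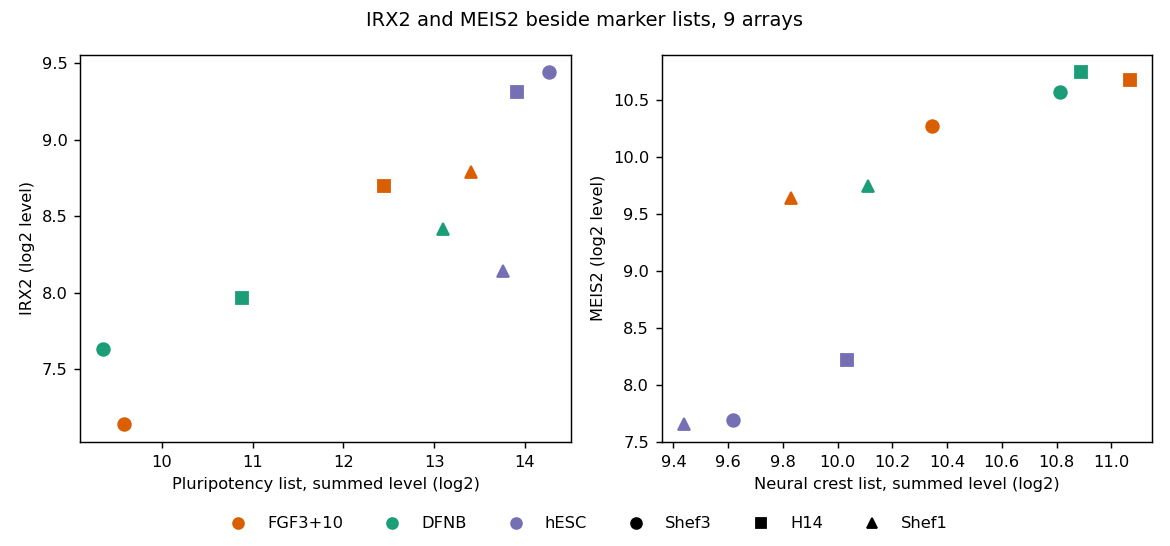
Left, log2 level of IRX2 against the summed log2 level of 9 pluripotency markers, and right, MEIS2 against that of 6 neural crest markers, on the 9 arrays, with colour for the group and marker for the line. On the left the Shef1 triangles of day 14 sit near the hESC arrays, and on the right the 3 hESC arrays are the lowest for MEIS2.

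The remaining Iroquois genes of these clusters were read from a list of cluster mates. Neither of the 2 measured genes of the 3 listed was called in either comparison. IRX5, which neighbours IRX3 on chromosome 16 with 0 protein-coding genes between, had 5.98, 5.94 and 4.06 in FGF3+10, 6.42, 6.29 and 4.28 in DFNB and 4.36, 4.23 and 3.61 in hESC. It was higher than in hESC within all 3 lines, with a change of 1.26 ± 0.70 for FGF3+10 (adjusted p = 0.517) and 1.60 ± 0.70 for DFNB (adjusted p = 0.318). IRX4, the other gene of the chromosome 5 cluster, had a change of -0.97 ± 1.06 for FGF3+10 and -0.55 ± 1.06 for DFNB (adjusted p = 0.755 and 0.830), with all 9 values below 3.55.

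EN1, EN2 and GBX2, the genes that define the midbrain and isthmus, were low in all groups, and none averaged 4 over the arrays. EN1 had 0.29, -2.12 and -1.31 on the Shef3, H14 and Shef1 arrays of FGF3+10, 0.71, 1.39 and 0.19 on those of DFNB, and 0.90, -0.67 and -1.19 on those of hESC. All 9 values lay under the 95th percentile of the olfactory receptor genes. The change against hESC was -0.73 ± 0.73 for FGF3+10 (adjusted p = 0.729) and 1.08 ± 0.73 for DFNB (adjusted p = 0.497).

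EN2 had 5.34, 1.80 and 1.30 on the Shef3, H14 and Shef1 arrays of FGF3+10, 2.58, 5.02 and 4.14 on those of DFNB, and 3.17, 3.11 and 3.32 on those of hESC. The hESC arrays lay within 0.22 of each other, while each day 14 group had values on both sides of them. Values above the olfactory receptor percentile were on the Shef3 array of FGF3+10 and the H14 and Shef1 arrays of DFNB. The change was -0.39 ± 1.03 for FGF3+10 (adjusted p = 0.912) and 0.71 ± 1.03 for DFNB (adjusted p = 0.765).

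GBX2, the hindbrain-side factor of the isthmus, had 3.86, 1.49 and -1.63 in FGF3+10, 0.42, 2.65 and 1.24 in DFNB and 0.50, -2.53 and -2.92 in hESC, in the order Shef3, H14 and Shef1. It was above its own hESC array in 3 of 3 lines with FGF3+10 and in 2 of 3 in DFNB. The change was 2.89 ± 1.41 for FGF3+10 (adjusted p = 0.458) and 3.09 ± 1.41 for DFNB (adjusted p = 0.332). It was 1.58 for FGF3+10 without the Shef3 FGF3+10 array and for DFNB it was 2.04 without the H14 line and 4.67 without the Shef3 line. The Shef3 array of FGF3+10 was its only value above 3.55, and that array also held the highest EN2.

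The study's direct question on the growth factors is the comparison of FGF3+10 with DFNB, and here 0 members and 0% of all genes were called by limma. At an unadjusted p under 0.05, 1 member (EN1) and 1.52% of all genes passed, and the groups were separate for 0 members (background 1.46% higher and 1.72% lower). The median change over the members was -0.07, beside 0.00 over all genes. EN1 came nearest, at -1.81 ± 0.73 (95% interval -3.47 to -0.14; unadjusted p = 0.0364; adjusted p = 1.00), lower with FGF3+10 in 3 of 3 lines and at low signal throughout. MEIS2 differed by -0.16 ± 0.40 (interval -1.06 to 0.75) and MEIS1 by 0.34 ± 0.41 (interval -0.60 to 1.27). IRX1 differed by 0.01 ± 0.54 (interval -1.23 to 1.25), IRX2 by 0.20 ± 0.54 (interval -1.04 to 1.44) and IRX3 by 0.07 ± 0.69 (interval -1.52 to 1.65). The intervals reach past 1 log2 unit on at least 1 side for each of these members, and they do not show that the media act alike.

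Between FGF3+10 and DFNB the lines differed in sign for EN2 and GBX2. Most values of these genes lay below the olfactory receptor percentile, so their sizes rest on low signal. The lines also differed in sign for IRX1, IRX2, IRX3 and MEIS1, whose main probe sets lay above that percentile on every array. In the order Shef3, H14 and Shef1 the differences were -1.01, 0.87 and 0.16 for IRX1 and -0.49, 0.73 and 0.37 for IRX2. They were -1.18, 1.29 and 0.08 for IRX3 and -0.24, 0.83 and 0.42 for MEIS1. EN2 with FGF3+10 minus DFNB stood at 2.76 in Shef3, against -3.22 in H14 and -2.84 in Shef1, and its group difference was -1.10 ± 1.03 (interval -3.44 to 1.24). GBX2 stood at 3.44 in Shef3, against -1.16 in H14 and -2.87 in Shef1, and its group difference was -0.20 ± 1.41 (interval -3.40 to 3.01). All 9 GBX2 values lay below 4, so with values below 4 set to 4 it had no difference in any comparison. The signs by line are in the plot of differences. Other marker lists were read beside these genes. The sum of 10 neuron markers ran from 11.4 to 12.3 in FGF3+10, 11.7 to 12.7 in DFNB and 11.9 to 12.6 in hESC. TUBB3, chosen after its values were seen, was the highest gene of this list on every array and weighed most in the sum. It averaged 11.39 in FGF3+10, 11.60 in DFNB and 11.80 in hESC, so the neuron sum mostly follows this 1 gene. Of the neuron list 0 genes were called against hESC, with a median change of -0.10 with FGF3+10 and 0.44 in DFNB. On average 5 of the 10 were higher with FGF3+10 and 8 in DFNB. DCX, a microtubule protein of young neurons, had a change of 2.83 ± 1.28 with FGF3+10 and 3.64 ± 1.28 in DFNB (adjusted p = 0.430 and 0.241). Its differences in Shef3, H14 and Shef1 were 7.14, 0.66 and 0.68 with FGF3+10 and 6.81, 2.32 and 1.79 in DFNB. The Shef3 hESC value of DCX, 0.78, lay below the olfactory receptor percentile. ELAVL3, a neuronal RNA-binding protein, had a change of 0.12 ± 1.15 and 2.16 ± 1.15 (adjusted p = 0.982 and 0.396). The sum of 10 mesenchyme and matrix markers ran from 12.3 to 14.2 in FGF3+10, 13.3 to 14.7 in DFNB and 13.3 to 13.5 in hESC, with 0 genes called. The median change of the mesenchyme list was -0.10 with FGF3+10 and 1.18 in DFNB, with 4 and 9 of the 10 higher on average. The matrix genes MGP and DCN had a change of 1.19 ± 3.56 and 1.44 ± 1.11 with FGF3+10 (adjusted p = 0.925 and 0.642). In DFNB it was 6.10 ± 3.56 and 2.89 ± 1.11 (adjusted p = 0.430 and 0.272). MGP ran from -4.97 to 10.3, and with values below 4 set to 4 its difference was 1.39 with FGF3+10 and 2.30 in DFNB. Over the 6 day 14 arrays the neuron sum had an r of 0.707 with EN1, 0.728 with EN2, 0.773 with GBX2 and 0.774 with MEIS2, and the mesenchyme sum had one of 0.704, 0.573, 0.659 and 0.799 in the same order. EN1 lay below the olfactory receptor percentile on all of these arrays. The part of neurons or mesenchyme in these values was not tested.

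**Figure D4:**
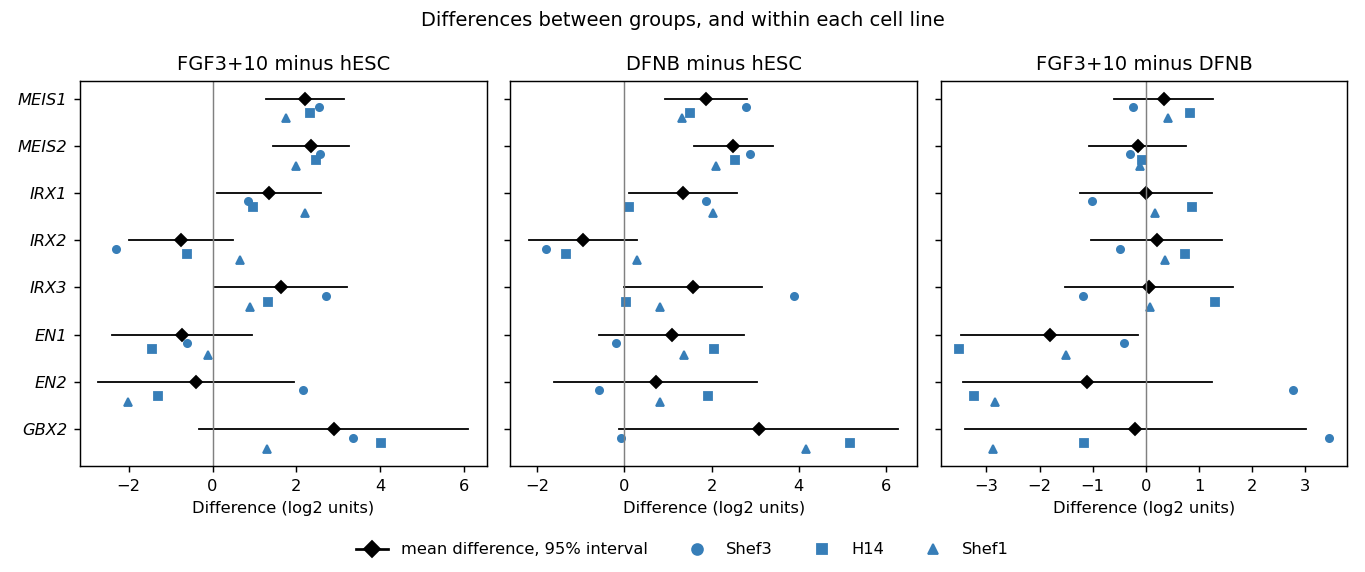
Differences in log2 units for FGF3+10 minus hESC, DFNB minus hESC and FGF3+10 minus DFNB, with a diamond and bar for the mean difference and its 95% interval and a blue marker for each cell line. The bars of MEIS1, MEIS2 and IRX1 stay above 0 in both comparisons with hESC and that of IRX3 in the comparison of FGF3+10, and the bars of EN2 and GBX2 are the widest.

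Between the cell lines, adjusted for group, 0 of 8 members and 0.486% of all genes were called by limma. MEIS2 came nearest, with means over the 3 arrays of a line of 9.51 for Shef3, 9.88 for H14 and 9.01 for Shef1 (unadjusted p = 0.0395; adjusted p = 0.223). The adjusted p of the other members ran from 0.341 for EN1 to 0.887 for EN2. H14 had the highest mean of the lines for MEIS1, MEIS2, IRX1, IRX2 and IRX3.

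The genes most like each member were named by Pearson r over all 9 arrays, among genes at or above 4 on at least 3 arrays, as a description in which day 0 and day 14 arrays weigh on every r. MEIS2 ran most closely with ZNF704 (r = 0.993) and RAI1 (0.990), and MEIS1 with HMGA2 (0.974) and ZKSCAN1 (0.971). IRX1 ran most closely with FBLN7 (0.989) and RALGAPA2 (0.975), IRX2 with METTL17 (0.994) and NUP205 (0.993), and IRX3 with CAB39L (0.973) and CRYZL1 (0.970). For the low genes the closest were ANO6 (0.962) and CNN1 (0.936) for EN1, FSTL1 (0.913) and CPEB2 (0.912) for EN2, and EPHA2 (0.969) and PYROXD1 (0.953) for GBX2.

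Genes that act with the members or mark neighbouring regions were read from lists holding 70 genes, of which 56 were measured, with the members left out. With FGF3+10 against hESC 1 of the 56 was called, and in DFNB against hESC 0 were, beside the backgrounds of 0.177% and 0.203%. The block called 2 and 1 of the 56, beside 0.583% and 0.958% of all genes. The median change of the 56 was -0.00 with FGF3+10 and 0.09 in DFNB. Between FGF3+10 and DFNB 0 were called.

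The called gene was SIX6, an eye field and hypothalamic homeobox gene, which rose with FGF3+10. It had 5.74, 6.52 and 7.27 on the Shef3, H14 and Shef1 arrays of FGF3+10, 4.51, 1.20 and 6.07 on those of DFNB, and -1.73, -1.78 and -1.08 on those of hESC. All hESC values and the H14 value of DFNB lay below the olfactory receptor percentile of 3.55, so the size rests on low signal. Its change was 8.04 ± 1.07 for FGF3+10 (adjusted p = 0.0356) and 5.46 ± 1.07 for DFNB (adjusted p = 0.0796), and the difference between these groups was 2.58 ± 1.07 (adjusted p = 1.00). With values below 4 set to 4, the difference of SIX6 from hESC was 2.51 for FGF3+10 and 0.86 for DFNB. When any 1 line, hESC array or FGF3+10 array was left out, 0 list genes were called, SIX6 included. It belongs to the forebrain and eye field list, 11 measured of 15, whose median change was 1.79 with FGF3+10 and 1.24 in DFNB. Groups did not overlap, with the day 14 group higher, for 4 of its genes with FGF3+10 and 5 in DFNB (background 5.66% and 7.79%). They did so with the day 14 group lower for 0 genes. On average 7 of the 11 were higher with FGF3+10 and 8 in DFNB. HESX1, NKX2-1 and TBR1 were lower on average in both. The change of HESX1 was -1.20 with FGF3+10 and -2.58 in DFNB, and all values of NKX2-1 and TBR1 lay below 3.55. SIX3, LHX2 and PAX6, chosen after their values were seen, were among those with separate groups, higher in both. In H14 their DFNB difference from hESC was the smallest of the lines, at 2.02, 0.53 and 0.65 in that order. PAX6 averaged 9.32, 8.68 and 4.81 in FGF3+10, DFNB and hESC (adjusted p = 0.129 and 0.148 against hESC). All hESC values of SIX3 and LHX2 lay below 3.55.

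The isthmic list, 12 measured of 13, had a median of -0.29 with FGF3+10 and -0.11 in DFNB and 0 called. OTX2, the midbrain-side counterpart of GBX2 at this border, averaged 9.21 in FGF3+10, 9.02 in DFNB and 9.77 in hESC, with a change of -0.56 ± 0.85 and -0.76 ± 0.85 (adjusted p = 0.833 and 0.693), and was chosen after its values were seen. FGF17, an isthmic signal of the FGF8 family, was lower on all day 14 arrays than on any hESC array, with a change of -2.88 ± 0.68 for FGF3+10 and -2.89 ± 0.68 for DFNB (adjusted p = 0.142 and 0.117), but all 9 values lay below 3.55. FGF8, the main isthmic signal, stood out on 1 line: it had 0.77, 6.36 and -0.08 in FGF3+10, -0.26, 4.46 and 1.33 in DFNB and 1.44, -1.64 and 1.41 in hESC, in the order Shef3, H14 and Shef1. Its change was 1.95 ± 1.83 for FGF3+10 and 1.44 ± 1.83 for DFNB (adjusted p = 0.706 and 0.732).

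Of the hindbrain segment genes, 10 of 15 were measured and 0 called, with a median of -0.11 with FGF3+10 and 0.27 in DFNB. EPHA4, a receptor with segmental expression in the hindbrain and much expression elsewhere, had 8.57, 8.50 and 9.36 in FGF3+10, 8.11, 8.83 and 8.77 in DFNB and 7.73, 7.74 and 5.98 in hESC. Its day 14 arrays did not overlap with hESC, with a change of 1.66 ± 0.53 and 1.42 ± 0.53 (adjusted p = 0.260 and 0.259). HOXB4, a gene of the posterior hindbrain and cord, had a change of -2.23 ± 0.99 for FGF3+10 and -1.15 ± 0.99 for DFNB (adjusted p = 0.421 and 0.598). It had 0.26, 2.54 and 1.92 in FGF3+10, 4.41, 0.93 and 2.64 in DFNB and 2.41, 4.35 and 4.67 in hESC. Most of these lay below 3.55, and with values below 4 set to 4 the difference was -0.34 and -0.20. In Shef3 the DFNB array was above the hESC array, by 2.01.

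Partners of the MEIS proteins were measured for 7 of 8 genes, with 0 called and a median of 0.12 with FGF3+10 and 0.06 in DFNB. PKNOX2, a TALE relative of MEIS, had 7.20, 6.47 and 7.01 in FGF3+10, 7.28, 7.13 and 7.10 in DFNB and 5.07, 5.54 and 5.43 in hESC. Its groups were separate from hESC, with a change of 1.55 ± 0.30 for FGF3+10 (adjusted p = 0.0959, and 0.0894 with the block) and 1.82 ± 0.30 for DFNB (adjusted p = 0.0596, and 0.0533 with the block). MEIS3, the third MEIS gene, had a change of 1.14 ± 0.76 and 1.50 ± 0.76 (adjusted p = 0.590 and 0.376).

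Among 7 measured of 8 other anterior homeobox genes, 0 were called and the median was 0.63 with FGF3+10 and -0.02 in DFNB. EMX2, a dorsal forebrain gene, had 5.21, 6.94 and 4.72 in FGF3+10, 5.39, 6.60 and 5.05 in DFNB and 2.52, 3.24 and 2.73 in hESC. Its change of 2.79 ± 0.63 for FGF3+10 and 2.85 ± 0.63 for DFNB had an adjusted p of 0.129 and 0.102, and of 0.0436 and 0.0366 with the block. Its hESC values lay below 3.55, and with values below 4 set to 4 the difference was 1.62 and 1.68. POU3F3, a neural POU factor, had a change of 0.73 ± 1.04 and 1.95 ± 1.04 (adjusted p = 0.819 and 0.396). The midbrain floor and dopaminergic list, 7 measured of 9, had 0 called and a median of -1.01 with FGF3+10 and -0.65 in DFNB. FOXA2, a floor plate and endoderm factor, had 1.20, 1.94 and 1.56 in FGF3+10, -3.35, 1.62 and 3.34 in DFNB and 6.26, 6.67 and 5.99 in hESC. It was lower than in hESC in 3 of 3 lines, with a change of -4.74 ± 1.40 for FGF3+10 and -5.77 ± 1.40 for DFNB (adjusted p = 0.228 and 0.129). Its day 14 values lay below 3.55, and with the same floor the difference was -2.31 and -2.31. PITX3, a factor of dopaminergic neurons, had a change of 2.44 ± 1.54 and 1.66 ± 1.54 (adjusted p = 0.566 and 0.625), with all 9 values below 3.55. The plot of the regional lists shows the spread of each.

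**Figure D5:**
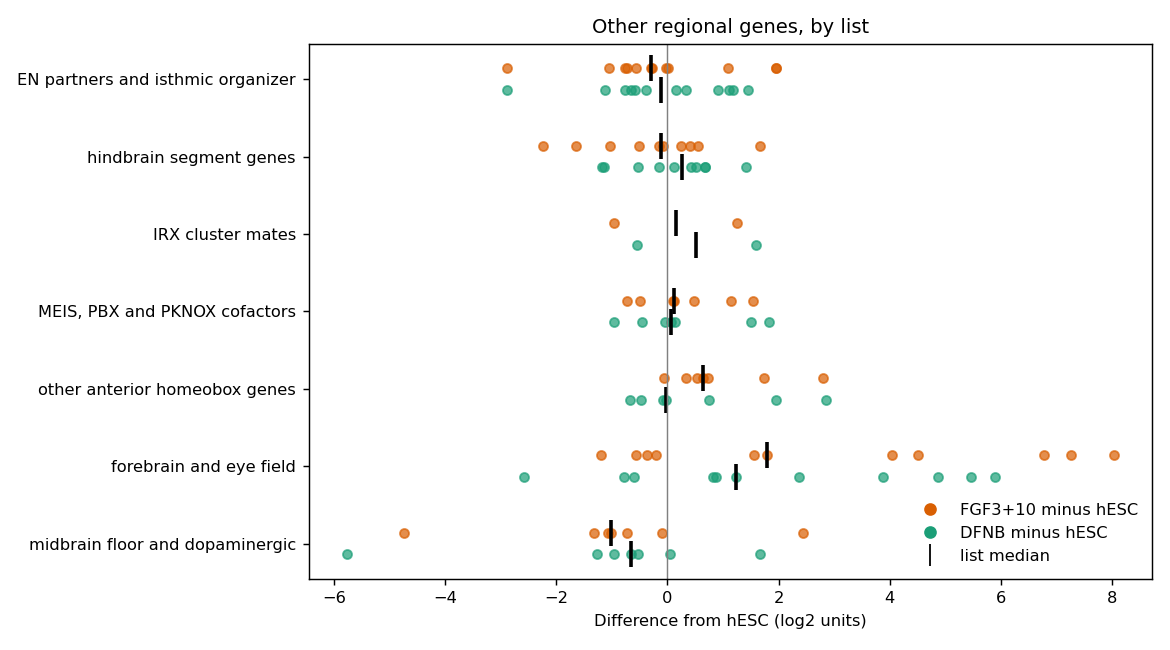
Change against hESC in log2 units of each measured gene in 7 lists of regional genes, with 1 point per gene for FGF3+10 (upper row of a list) and DFNB (lower row) and a bar at the list median. The widest spread to the right is in the forebrain and eye field list, where SIX6 reaches 8.04 with FGF3+10.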

How the data were processed

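Total RNA of 9 human embryonic stem cell samples (3 lines in 3 groups) was amplified and hybridised to Affymetrix arrays, per the labels' protocols. The deposited table of the authors holds 1 log value per probe set and array, taken here as log2; its base, and the software used, were not given in the sources used here. Every array has the same median. Names came from GEO's platform annotation, updated by Entrez ID: of 54675 probe sets, 41091 name 1 gene, 1801 several, 11721 none, and 62 are controls. The highest probe set stood for each of 19735 genes. All groups were fitted together with limma 3.58.1 in R 4.3.3, with Benjamini-Hochberg adjustment over all genes and 95% intervals; 3 arrays per group limit the precision, and p-values cover only the spread between these samples.

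The cell line labels pair the arrays. Deviations from group means of same-line arrays correlated at 0.182 to 0.284 for FGF3+10 with hESC, 0.0864 to 0.339 for DFNB with hESC and 0.331 to 0.714 for FGF3+10 with DFNB, and the blocked value is given where it changes a call. Members and lists were chosen with earlier results of these data known. Each list names its called genes, or otherwise the 2 with the largest mean change of both day 14 groups against hESC. Alternatives were the block, quantile normalization, a floor at 4, leaving out low genes, the mean of a gene's probe sets, 6-array fits, array weights and leaving out arrays or lines. The fits that join the block to a further choice were chosen after seeing the data. Scripts were tested on simulated data. Promoter sequences are RefSeq's, with entries for 7 of 9 members.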

Additional observations from a re-analysis of the deposited data

Results flagged for a closer look

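IRX2 differed between cell lines in the direction of its difference from hESC. In Shef1 it was higher than in the line's own hESC array, by 0.65 with FGF3+10 and 0.28 in DFNB. In Shef3 the differences were -2.30 and -1.81, and in H14 they were -0.62 and -1.35, in the same order. Each value is 1 array minus 1 array, and the difference between lines was not tested.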

How the results depend on the processing

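Of the 8 members, 0 were called in each group comparison, and 0 in every fit without the block that left out an array or a line. The number moved with other choices. With the cell line as a replicate block it was 1 in each comparison with hESC (MEIS2), and no other member's call changed. For FGF3+10 against hESC it was 2 with values below 4 set to 4, 2 with genes averaging below 4 left out and 2 with array weights; for DFNB it was 1, 1 and 2, and 1 with quantile normalization. Joined to the block, quantile normalization gave 1 and 1, the floor gave 2 and 2, and leaving out arrays or lines gave 0 and 0 to 1. The members were MEIS2 and, where 2 were called, MEIS1. Between lines, array weights gave 1. For FGF3+10 against DFNB it was 0 throughout. Over all genes, the 35 called for FGF3+10 and 40 for DFNB became 115 and 189 with the block, 124 and 184 with the floor, 66 and 122 without low genes, 15 and 26 with 6 arrays, 292 and 1627 with array weights, and 0 to 32 and 0 to 71 without an array or a line (2 and 9 without the Shef1 hESC array). They became 45 and 66 with quantile normalization. With the block joined they were 97 and 184 under quantile normalization, 227 and 422 with the floor, and 0 to 39 and 0 to 594 in the leave-outs.

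Regional list genes called for FGF3+10 against hESC, 1 as reported, were 2 with the block, the floor or the 6 arrays alone, 3 with array weights, 0 to 2 without an array or a line, and with the block 2 under quantile normalization, 2 with the floor and 0 to 3 in the leave-outs. For DFNB, 0 as reported, they were 1 with the block, 2 with the floor, 1 without low genes, 8 with array weights and 0 to 1 in the leave-outs, and with the block 2, 2 and 0 to 4.

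Some directions turned. EN2 had a change of 0.45 against hESC and 0.057 against DFNB for FGF3+10 with the floor, with or without the block, and GBX2 one of 0.10 against DFNB with array weights. Without an array or a line, with and without the block, FGF3+10 minus hESC ran from -1.99 to 0.45 for EN2 and from -1.46 to 0.015 for IRX2, and DFNB minus hESC from -0.12 to 2.01 for EN2. EN1 kept its signs, from -1.39 to -0.11 and from 0.41 to 1.75. FGF3+10 minus DFNB ran from -0.52 to 0.52 for IRX1, -0.19 to 0.76 for IRX2, -0.63 to 0.96 for IRX3, -0.46 to 0.12 for MEIS2 and -2.02 to 1.24 for GBX2. The cause was not tested.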
